A study of Arabidopsis thaliana with 18 samples.

Results

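Transcript levels of Arabidopsis genes that respond to dormancy and to sugar starvation were followed in seedlings given a solvent control, a jasmonate mimic or the compound DPAM-1, with and without salt. The genes were DRM1 (AT1G28330) and DRM2 (AT2G33830), which encode dormancy-associated proteins, the asparagine synthetase gene ASN1 (AT3G47340, also DIN6), the raffinose synthase family gene DIN10 (AT5G20250), AT3G15450, annotated as an aluminum induced protein with YGL and LRDR motifs, and the rhodanese family gene SEN1 (AT4G35770, also DIN1). Of these 6 genes 5 had a row among the 14229 genes of the count table. SEN1 had none and was not analysed here. DRM2 and AT3G15450 were selected on their pattern of levels over the groups in these libraries, so their values are a description and carry no test in any comparison. DRM1, ASN1 and DIN10 were not picked for their pattern and were tested, but they too were chosen with earlier results of these data known, and their p-values carry that limit.

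The plants were Arabidopsis thaliana of the Col-0 accession, harvested as young seedlings from liquid MS medium. The 6 groups, of 3 libraries each, were 1% DMSO, 5 µM coronatine and 5 µM DPAM-1, each without salt or with 100 mM NaCl. The compounds went in at 4 days after germination, and in their salt groups NaCl followed 16 h later. In every salt group, that of DMSO included, NaCl went in 2 h before harvest. The labels give no time of solvent addition for the DMSO groups and no harvest time for the groups without NaCl. Coronatine is a bacterial toxin that acts as a mimic of jasmonoyl-isoleucine, the active jasmonate hormone. DPAM-1 is known here by its code name alone. The labels name DMSO in the solvent control groups alone, and they name no mock addition for the groups without NaCl, so the effect of a compound and that of its solvent, or of NaCl and that of adding it, cannot be told apart. Nothing in the labels ties a replicate number to a separate culture, and p-values then measure the spread between libraries, which may be technical.

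The sequencing protocol, Lasy-Seq, reads each transcript near its 3′ end. Library totals lay between 13638981 and 37279056 reads, and the measured genes named at the start had between 52 and 3357 reads in a library. Some genes of the lists described further on lay outside this range. Among them, bZIP63 had 32 reads in coronatine with NaCl replicate 2 and TPS8 38 reads in DPAM-1 replicate 1. EXPA10 had 17490 reads in coronatine with NaCl replicate 1. Levels are counts relative to library size (CPM) after TMM scaling, and they are compared between groups for 1 gene at a time. The table held all 8 shoot marker genes and all 9 root marker genes looked for. The summed level of the shoot markers ran from 43763 to 57056 CPM over the libraries without and with salt, and that of the root markers from 201 to 275 CPM. Root marker sums were 241 to 275 CPM after coronatine and 201 to 244 CPM in DMSO, so these ranges overlapped. Single root markers moved both ways with coronatine, 4 of the 9 higher and 3 lower: PRP3 averaged 78.2 CPM in DMSO and 110 CPM after coronatine, and TIP2-3 14.8 and 2.87 CPM. Of the 8 shoot markers 3 were higher and 1 lower. In this comparison, coronatine against DMSO without NaCl, 34.8% of all genes were called. The part of these markers in the results was not tested. In bulk seedlings, fewer cells of a type and less RNA per cell cannot be told apart.

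Plants that run short of sugar, as in prolonged darkness, switch on a set of genes that slow growth and draw on amino acids, lipids and cell walls for carbon. The kinase SnRK1, with the catalytic subunits KIN10 and KIN11, is a main switch of this program and acts in part through transcription factors of the bZIP family, and sugar turns the set off. The DIN genes were named for their induction in darkness, ASN1 being the best known of them: its enzyme moves nitrogen from glutamine to asparagine, a carbon-poor transport form. DRM1 transcripts are a marker of dormant axillary buds.

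**Figure D1:**
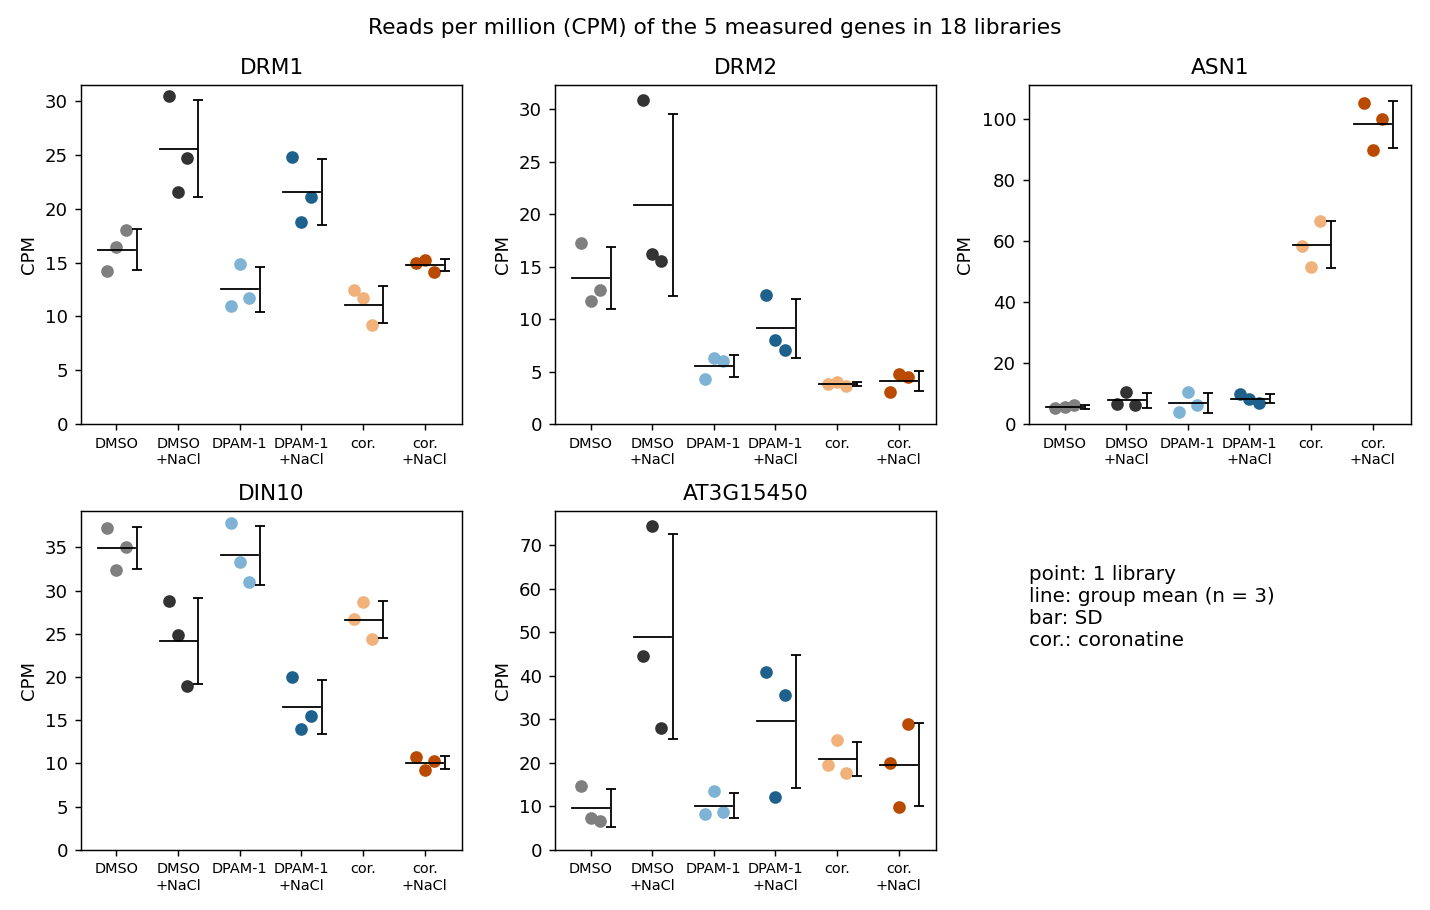
Level of each measured gene in CPM (linear vertical axes) in the 18 libraries, by group on the horizontal axis. Points are libraries, the line is the mean of 3 and the bar its SD. ASN1 lay above 51 CPM in all coronatine libraries and below 11 CPM in all others, while DRM2 lay below 5 CPM in all coronatine libraries.

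DRM1 rose with salt and fell with coronatine. In DMSO its level was 14.2, 16.4 and 18.04 CPM without NaCl, and 30.4, 21.6 and 24.7 CPM with it. The salt libraries lay above all DMSO libraries without salt. After DPAM-1 the level was 10.9, 14.9 and 11.7 CPM without NaCl, and 24.8, 18.8 and 21.1 CPM with it. The separation was again complete. After coronatine it was 12.5, 11.7 and 9.17 CPM without NaCl, and 14.996, 15.2 and 14.1 CPM with it, groups that were also apart but closer together. Groups with and without NaCl did not overlap for 30.9% of all genes in DMSO, 31.8% after DPAM-1 and 41.1% after coronatine. The rise with NaCl was 1.58-fold in DMSO (log2 0.66 ± 0.14 SE, adjusted p = 0.00209) and 1.73-fold after DPAM-1 (0.79 ± 0.15, adjusted p = 7.9e-04). After coronatine DRM1 stood at 0.40 ± 0.15 and missed the threshold of 0.05 (adjusted p = 0.0550), a call that turned with RLE factors (0.0493), with DESeq2 (0.0378) and without coronatine replicate 1 (0.0457). The salt effect was not shown to differ between coronatine and DMSO (interaction -0.26 ± 0.21, 95% interval -0.70 to 0.17, adjusted p = 0.554) or between DPAM-1 and DMSO (0.12 ± 0.21, -0.31 to 0.55, adjusted p = 0.998).

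Against DMSO, coronatine lowered DRM1 1.45-fold without NaCl (log2 -0.53 ± 0.15, adjusted p = 0.00788) and 1.74-fold under NaCl (-0.80 ± 0.14, adjusted p = 7.5e-05). The first of these calls held without any single library but ended when the DMSO and coronatine libraries numbered 3 were both left out (-0.34 ± 0.17, adjusted p = 0.138). DPAM-1 gave -0.37 ± 0.15 without NaCl (adjusted p = 0.267, 95% interval -0.68 to -0.06) and -0.25 ± 0.14 under it (adjusted p = 0.599, -0.54 to 0.05). Both intervals exclude a 2-fold change. Under NaCl DRM1 was 1.47-fold higher after DPAM-1 than after coronatine (0.55 ± 0.15, adjusted p = 0.00402), and without NaCl that difference was 0.16 ± 0.15 (adjusted p = 0.448, -0.15 to 0.48). By mean level the groups ran from DMSO with NaCl (25.6 CPM ± 4.49 SD, n = 3) through DPAM-1 with NaCl, DMSO, coronatine with NaCl and DPAM-1 to coronatine (11.1 CPM ± 1.71 SD, n = 3). In this order the ranges of neighbouring groups overlapped except between DPAM-1 with NaCl and DMSO. That pair differs in both compound and NaCl, and its share over all genes was not computed.

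DRM2, its relative, was low after both compounds. Its level in DMSO was 17.3, 11.7 and 12.8 CPM without NaCl, and 30.9, 16.2 and 15.6 CPM with it. These 2 groups overlapped, and replicate 1 was the highest of each. After DPAM-1 it was 4.31, 6.26 and 6.02 CPM without NaCl, and 12.3, 7.99 and 7.04 CPM with it. After coronatine it was 3.82, 4.04 and 3.61 CPM without NaCl, and 3.04, 4.75 and 4.52 CPM with it. All 6 coronatine libraries lay below every DMSO library, and so did those of DPAM-1 without NaCl. Coronatine and DMSO groups did not overlap for 39.4% of all genes without NaCl and 59.1% under it. For DPAM-1 and DMSO without NaCl that share was 17.9%. As a description, with no test, DRM2 was 3.62-fold lower after coronatine than in DMSO (log2 -1.86 ± 0.27 SE) and 2.48-fold lower after DPAM-1 (-1.31 ± 0.26). Under NaCl these differences were 5.25-fold (-2.39 ± 0.26) and 2.28-fold (-1.19 ± 0.24). DPAM-1 stood above coronatine by 0.54 ± 0.28 without NaCl and by 1.20 ± 0.27 under it, and these groups did not overlap. Of all genes 44.4% and 55.7% had no overlap in these comparisons.

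NaCl against no NaCl gave DRM2 a log2 difference of 0.60 ± 0.23 in DMSO, 0.72 ± 0.26 after DPAM-1 and 0.06 ± 0.29 after coronatine, the last between -0.05 and 0.27 over the alternatives. The value in DMSO rested on DMSO with NaCl replicate 1, without which it was 0.19 ± 0.21. Without that library the difference of DPAM-1 from DMSO under NaCl became -0.79 and that of coronatine -1.98. That after DPAM-1 was 0.42 without DPAM-1 with NaCl replicate 1. Neighbouring groups overlapped in range, from DMSO with NaCl (20.9 CPM ± 8.69 SD, n = 3) down to coronatine (3.83 CPM ± 0.214 SD, n = 3), except DPAM-1 with NaCl against DPAM-1. Those 2 groups did not overlap for 31.8% of all genes.

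ASN1 rose with coronatine, with and without salt. Its level in DMSO was 5.17, 5.50 and 6.41 CPM without NaCl, and 6.45, 10.4 and 6.36 CPM with it. After DPAM-1 it was 4.02, 10.5 and 6.25 CPM without NaCl, and 9.91, 8.34 and 6.85 CPM with it. These 4 groups overlapped as neighbours in the order of their means. After coronatine the level was 58.4, 51.5 and 66.8 CPM without NaCl, and 105, 90.1 and 100 CPM with it, above every other library. Coronatine and DMSO groups did not overlap for 39.4% of all genes without NaCl and 59.1% under it. Coronatine raised ASN1 10.3-fold without NaCl (log2 3.37 ± 0.22, adjusted p = 8.8e-12) and 12.9-fold under NaCl (3.69 ± 0.21, adjusted p = 5.8e-13). Across all alternative settings the log2 values lay between 3.14 and 3.46 and between 3.36 and 3.94.

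Salt raised ASN1 further in seedlings that had received coronatine, 1.68-fold (log2 0.75 ± 0.18, adjusted p = 0.00408). In DMSO the difference with NaCl was 0.42 ± 0.23 (adjusted p = 0.236, 95% interval -0.06 to 0.91) and after DPAM-1 0.26 ± 0.23 (adjusted p = 0.576, -0.23 to 0.74). The salt effect was not shown to differ between coronatine and DMSO (interaction 0.32 ± 0.30, -0.29 to 0.94, adjusted p = 0.615). The interaction of DPAM-1 with NaCl was -0.17 ± 0.33 (-0.85 to 0.52, adjusted p = 0.998). DPAM-1 against DMSO gave 0.31 ± 0.24 without NaCl (adjusted p = 0.588, -0.19 to 0.81) and 0.15 ± 0.23 under it (adjusted p = 0.889, -0.32 to 0.62). ASN1 was 8.31-fold lower after DPAM-1 than after coronatine without NaCl (-3.05 ± 0.21, adjusted p = 3.6e-11) and 11.7-fold lower under NaCl (-3.54 ± 0.21, adjusted p = 1.9e-12).

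DIN10 fell with NaCl after every pretreatment. In DMSO its level was 37.3, 32.4 and 35.1 CPM without NaCl, and 28.8, 24.9 and 18.9 CPM with it. After DPAM-1 it was 37.8, 33.4 and 31.0 CPM without NaCl, and 20.0, 14.01 and 15.5 CPM with it. After coronatine it was 26.7, 28.7 and 24.5 CPM without NaCl, and 10.7, 9.24 and 10.3 CPM with it. In each pretreatment all salt libraries lay below all libraries without salt. Such groups did not overlap, in either direction, for 30.9% of all genes in DMSO, 31.8% after DPAM-1 and 41.1% after coronatine. The fall was 1.44-fold in DMSO (log2 -0.53 ± 0.13, adjusted p = 0.00790), 2.04-fold after DPAM-1 (-1.03 ± 0.14, adjusted p = 1.8e-05) and 2.63-fold after coronatine (-1.40 ± 0.14, adjusted p = 2.3e-07). Without DMSO with NaCl replicate 3 the call in DMSO ended (-0.38 ± 0.13, adjusted p = 0.0660).

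The fall of DIN10 with NaCl was larger after coronatine than in DMSO, by the test of that difference (interaction -0.87 ± 0.20, adjusted p = 0.0117). The adjusted p stayed between 0.00144 and 0.0393 over the alternatives. For DPAM-1 the interaction was -0.51 ± 0.19 (95% interval -0.91 to -0.10, unadjusted p = 0.0158, adjusted p = 0.690). Under NaCl coronatine had DIN10 2.39-fold below DMSO (-1.26 ± 0.14, adjusted p = 1.2e-07), and DPAM-1 stood 1.64-fold above coronatine (0.71 ± 0.15, adjusted p = 4.0e-04). DPAM-1 against DMSO under NaCl was -0.55 ± 0.14 and missed the threshold (adjusted p = 0.0844). It passed with DESeq2 (0.0233), without DMSO with NaCl replicate 3 (0.00785) and without DPAM-1 with NaCl replicate 1 (0.0408).

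Without NaCl the differences in DIN10 were smaller. Coronatine lowered it 1.31-fold (log2 -0.39 ± 0.14, adjusted p = 0.0283), but leaving out replicate 1 or 3 of DMSO or of coronatine ended the call (0.0992 and 0.0557, 0.0695 and 0.0862). DPAM-1 against DMSO was at -0.04 ± 0.13 (adjusted p = 0.928, 95% interval -0.32 to 0.24), which excludes a 2-fold change. DPAM-1 stood 1.27-fold above coronatine (0.35 ± 0.14, adjusted p = 0.0492), a call that ended without replicate 1 or 3 of coronatine (0.1005 and 0.142) or replicate 1 or 2 of DPAM-1 (0.192 and 0.0795). The order of means ran from DMSO (34.9 CPM ± 2.42 SD, n = 3) to coronatine with NaCl (10.08 CPM ± 0.764 SD, n = 3). DPAM-1 and coronatine, and DPAM-1 with NaCl and coronatine with NaCl, were the neighbours whose ranges did not overlap. Groups of these comparisons did not overlap for 44.4% and 55.7% of all genes.

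AT3G15450 varied between libraries in most groups. Its level in DMSO was 14.6, 7.35 and 6.66 CPM without NaCl, and 44.5, 74.5 and 28.1 CPM with it, groups that did not overlap, as was so for 30.9% of all genes. After DPAM-1 it was 8.33, 13.6 and 8.57 CPM without NaCl, and 40.9, 12.2 and 35.5 CPM with it. Replicate 2 with NaCl lay inside the range without NaCl. After coronatine it was 19.6, 25.1 and 17.7 CPM without NaCl, and 20.0, 9.82 and 28.8 CPM with it. The range with NaCl enclosed the one without. The SD was 45.9% of the mean in DMSO, 48.0% in DMSO with NaCl, 29.1% after DPAM-1, 51.6% in DPAM-1 with NaCl, 18.6% after coronatine and 48.6% in coronatine with NaCl. In DMSO its highest library was the one in which DRM2 was also highest, and in DMSO with NaCl it was another.

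As a description, AT3G15450 was 5.13-fold higher with NaCl in DMSO (log2 2.36 ± 0.40 SE) and 2.93-fold higher after DPAM-1 (1.55 ± 0.40). After coronatine the salt difference was -0.08 ± 0.38, and it lay between -0.44 and 0.22 over the alternatives. Coronatine against DMSO was 1.13 ± 0.41 without NaCl and -1.31 ± 0.37 under it. DPAM-1 against DMSO was 0.10 ± 0.42 without NaCl and -0.71 ± 0.37 under it, and the latter became -0.29 without DMSO with NaCl replicate 2. The former ran from -0.17 without DPAM-1 replicate 2 to 0.54 without DMSO replicate 1, so its sign rests on single libraries. DPAM-1 against coronatine was -1.03 ± 0.40 without NaCl, with no overlap, and 0.60 ± 0.38 under it, where the groups overlapped. Without NaCl 44.4% of all genes had no overlap in this comparison. The salt difference after coronatine less that in DMSO was -2.44 ± 0.55, and after DPAM-1 less that in DMSO -0.81 ± 0.56. All neighbouring groups overlapped in the order from DMSO with NaCl (49.0 CPM ± 23.5 SD, n = 3) to DMSO (9.52 CPM ± 4.37 SD, n = 3).

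**Figure D2:**
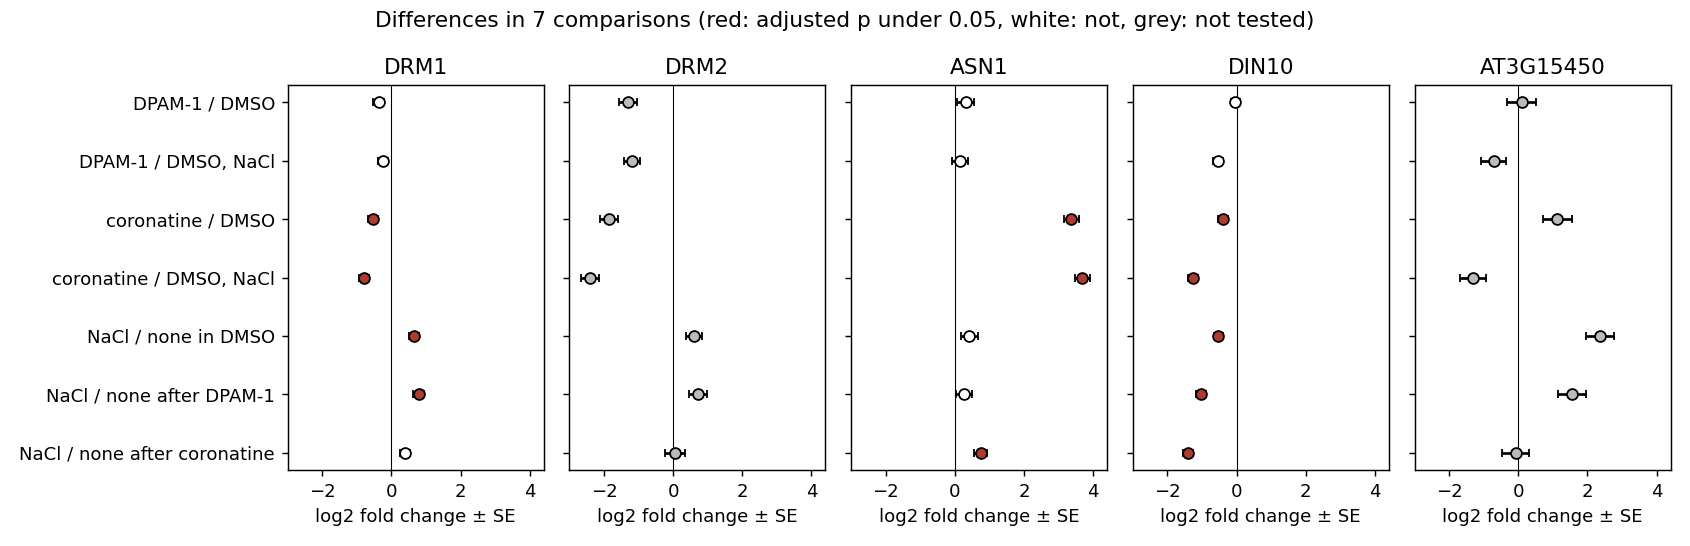
Log2 fold change (horizontal axes) of each gene in 7 comparisons of groups of 3 libraries, with SE from the model of all 18 libraries. Red points passed an adjusted p of 0.05, white points did not and grey points were not tested. ASN1 stood at 3.37 and 3.69 for coronatine against DMSO, while DIN10 lay below 0 in all 3 comparisons of NaCl with no NaCl.

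Set against the whole table, the share of tested genes that passed differed widely between comparisons. Coronatine against DMSO called 3 of the 3 tested genes, ASN1 higher and the others lower, where 34.8% of all genes were called. Under NaCl it again called 3 of 3, against 47.8% of all genes. DPAM-1 against DMSO called 0 of 3 by edgeR (1 at an unadjusted p under 0.05, DRM1, and 0 by DESeq2), where 1.02% of all genes were called. Under NaCl it called 0 of 3 by edgeR (1 unadjusted and 1 by DESeq2, both DIN10), against 0.576%. DPAM-1 against coronatine called 2 of 3 without NaCl, against 34.9%, and 3 of 3 under it, against 42.4%. NaCl called DRM1 and DIN10 in DMSO, where 17.7% of all genes were called, and again after DPAM-1, where 12.2% were. After coronatine it called ASN1 and DIN10, against 26.8%. The interaction of DPAM-1 with NaCl called 0 of 3 by edgeR (1 unadjusted, 0 by DESeq2), against 0.499%, and that of coronatine called DIN10 alone, against 3.84%. Comparisons that share a group, such as those of both compounds with DMSO, are not independent.

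The genes did not form a single pattern over the 18 libraries. DRM1 and DRM2 ran together most closely, at a Pearson r of 0.78 of log2 CPM. ASN1 ran against DRM2 (r = -0.69) and DIN10 (r = -0.61), and AT3G15450 had its highest r with DRM1 (0.52). These values describe libraries that share their groups and their scaling. The genes most like each member, among 13777 others, were also read off as a description. For ASN1 they were TAT3 (AT2G24850, tyrosine aminotransferase, r = 0.99), AIB (AT2G46510, a bHLH transcription factor, r = 0.99) and CYP94B1 (AT5G63450, a cytochrome P450, r = 0.99). For DIN10 they were PATL1 (AT1G72150, patellin 1, r = 0.95), Cand1 (AT1G57680, r = 0.95) and AT1G72430 (a SAUR-like gene, r = 0.95). DRM1 was followed most closely by AT3G10020 (r = 0.92), DOX1 (AT3G01420, a peroxidase family gene, r = 0.91) and ACHT4 (AT1G08570, an atypical thioredoxin, r = 0.91). For DRM2 the values were lower, 0.87 for SLAH3 (AT5G24030, annotated as a homologue of SLAC1), AT5G67130 and AT3G22150. For AT3G15450 they were 0.83 for CMPG2 (AT5G64660), 0.82 for J8 (AT1G80920, a DnaJ-domain protein) and 0.81 for PP2-B1 (AT2G02230, phloem protein 2-B1).

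Of 16 relatives in the same families 12 were measured. Coronatine raised 5 and lowered 2 of them without NaCl, where 34.8% of all genes were called, and raised 6 and lowered 4 under it, where 47.8% were. The 5 became 3 without coronatine replicate 1, with the compared groups alone, and under upper-quartile or library-total scaling. DPAM-1 against DMSO called 0 of 12 by edgeR (4 unadjusted and 0 by DESeq2, but 1 without DMSO replicate 1) without NaCl, and 0 (3 unadjusted and 0 by DESeq2) under it. For this comparison 1.02% of all genes were called without NaCl and 0.576% under it. Salt raised 3 of the 12 and lowered 2 in DMSO, raised 4 and lowered 2 after DPAM-1, and raised 4 and lowered 3 after coronatine. Of all genes 17.7%, 12.2% and 26.8% were called in these salt comparisons. ASN2 (AT5G65010), the second asparagine synthetase gene, rose 1.63-fold with NaCl in DMSO (adjusted p = 2.7e-06), where 3 libraries averaged 127 CPM ± 11.1 SD without it and 208 CPM ± 22.4 SD with it. It rose 1.68-fold after DPAM-1 (adjusted p = 1.9e-06). After coronatine it fell with NaCl by 0.24 ± 0.09 on the log2 scale (adjusted p = 0.0394), a call that ended without coronatine replicate 1 or 3 or coronatine with NaCl replicate 2 or 3 (up to 0.162). The salt effect on ASN2 differed between coronatine and DMSO (interaction -0.94 ± 0.12, adjusted p = 4.7e-05), and under NaCl ASN2 was lower after coronatine than in DMSO (-0.88 ± 0.09, adjusted p = 8.4e-09). ASN3 (AT5G10240) fell with NaCl after coronatine (-0.45 ± 0.10, adjusted p = 0.00232). It also fell in DMSO (-0.34 ± 0.10, adjusted p = 0.0233). With DMSO replicate 1 or 3 or DMSO with NaCl replicate 3 left out it was still lower, by log2 values of -0.34, -0.28 and -0.28, but was not called (adjusted p up to 0.123), nor with the compared groups alone (-0.35, 0.0742).

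In the raffinose synthase family of DIN10, AT3G57520 (SIP2, annotated as seed imbibition 2) fell with NaCl as DIN10 did, by 0.96 ± 0.11 in DMSO, 0.97 ± 0.12 after DPAM-1 and 1.38 ± 0.11 after coronatine on the log2 scale (adjusted p = 1.7e-06, 3.3e-06 and 3.8e-09). Coronatine raised it 4.69-fold (adjusted p = 4.8e-14), with means of 32.2 CPM ± 4.41 SD in DMSO and 151 CPM ± 20.1 SD after coronatine. AT5G40390 (raffinose synthase 5) rose with NaCl 2.12-fold in DMSO, 1.79-fold after DPAM-1 and 2.15-fold after coronatine (adjusted p = 6.8e-06, 2.3e-04 and 3.6e-06). AT1G55740 (raffinose synthase 1) rose 1.73-fold with NaCl in DMSO (adjusted p = 0.00940), which ended without DMSO replicate 2 (0.0515).

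AT1G56220, of the dormancy and auxin associated family like DRM1 and DRM2, fell 2.31-fold with coronatine (adjusted p = 9.9e-10), the mean being 73.4 CPM ± 3.98 SD in DMSO against 31.8 CPM ± 1.07 SD. Under NaCl it was 2.37-fold lower than in DMSO (adjusted p = 3.7e-10). It rose with NaCl after DPAM-1 (0.38 ± 0.10, adjusted p = 0.0133), which ended without DPAM-1 replicate 2 or 3 or DPAM-1 with NaCl replicate 1 (up to 0.0692). Of the relatives of AT3G15450, AT3G22850 rose 1.99-fold with coronatine (adjusted p = 3.6e-10) and AILP1 (AT5G19140) fell 1.51-fold (adjusted p = 1.5e-05). AT5G43830 rose with NaCl after coronatine (0.35 ± 0.07, adjusted p = 0.00113). AT4G27450 fell with NaCl after DPAM-1 (-1.03 ± 0.31, adjusted p = 0.0316), which ended with DESeq2 (0.0618) and without DPAM-1 replicate 1 or 2 or DPAM-1 with NaCl replicate 2 (up to 0.159). STR18 (AT5G66170), a sulfurtransferase of the rhodanese family to which SEN1 belongs, rose 5.47-fold with coronatine (adjusted p = 7.2e-14), to 104 CPM ± 19.4 SD against 19.1 CPM ± 0.229 SD in DMSO.

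**Figure D3:**
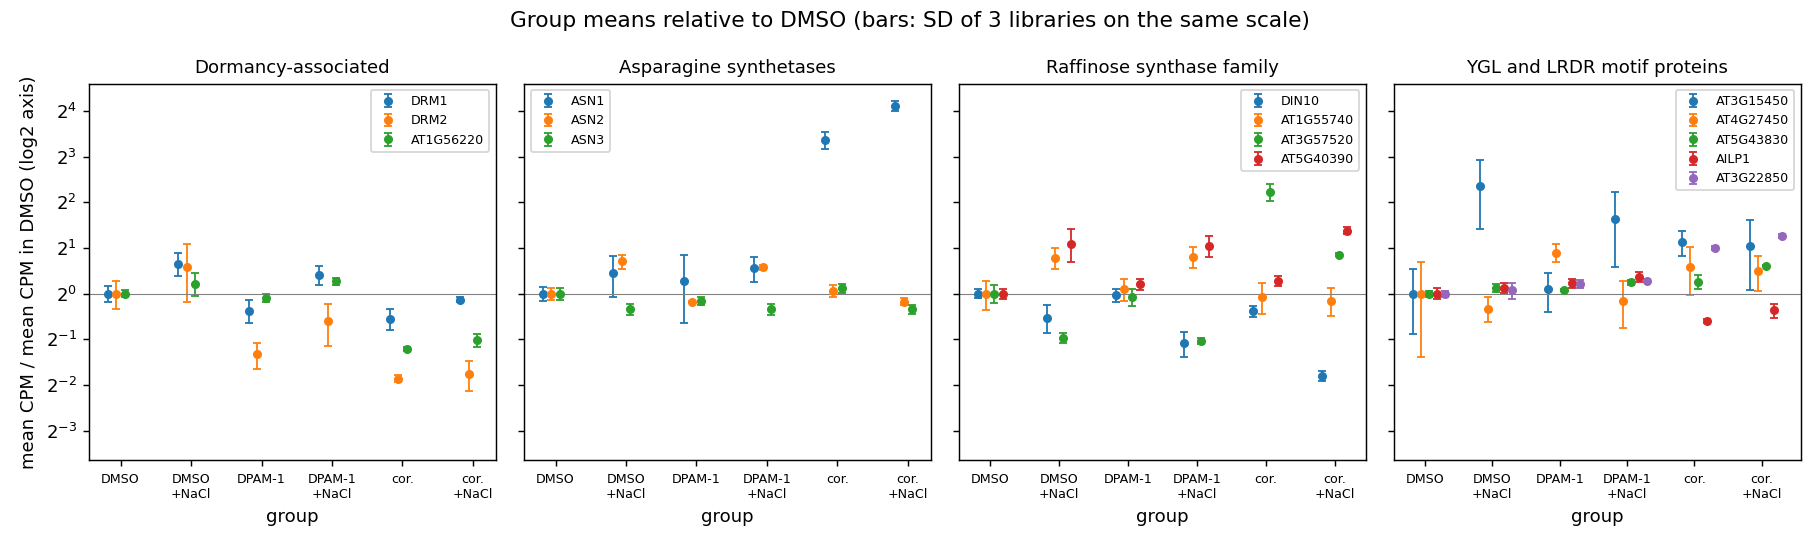
Mean CPM of each gene divided by its own mean in DMSO, on a log2 vertical axis, by group, for the genes and their measured relatives. Bars are the SD of 3 libraries on the same scale. ASN1 and AT3G57520 rose with coronatine, 10.3-fold and 4.69-fold, and DIN10 fell with NaCl while AT5G40390 rose.

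The wider starvation response was described by a list of 27 genes, 25 of them measured, for amino acid and branched-chain catabolism, other DIN genes, wall enzymes and autophagy. Coronatine raised 9 and lowered 2, where 34.8% of all genes were called, with a median log2 change of 0.23 against -0.01 over all genes. DIN11 (AT3G49620), a dioxygenase family gene, rose 18.4-fold (adjusted p = 8.6e-14), with means of 3.62 CPM ± 0.677 SD in DMSO and 66.8 CPM ± 9.42 SD after coronatine. DIN9 (AT1G67070), which encodes phosphomannose isomerase 2, rose 8.24-fold (adjusted p = 5.9e-14). GDH2 (AT5G07440), a glutamate dehydrogenase gene, rose 3.63-fold (adjusted p = 1.7e-15), to 317 CPM ± 6.72 SD against 87.4 CPM ± 5.28 SD. BGAL4 (AT5G56870), a beta-galactosidase gene, fell (-2.14 ± 0.12, adjusted p = 8.4e-13). ATG8E (AT2G45170), an autophagy gene, fell (-0.40 ± 0.13, adjusted p = 0.0169), which ended without DMSO replicate 1 or 2 (0.0921 and 0.0557) and with the compared groups alone (0.0577). Under NaCl, where 47.8% of all genes were called, the same comparison had 12 higher and 2 lower, median 0.35 against -0.01. With library totals in place of TMM factors it had 7 higher and 6 lower, and with upper-quartile factors 5 were lower.

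After DPAM-1 only BGAL4 of the 25 passed without NaCl, at -0.50 ± 0.11 (adjusted p = 0.0235), and this ended without DMSO replicate 1 or 3 or any DPAM-1 library (up to 0.112). The BGAL4 call also ended with the compared groups alone (0.0589) and with the DMSO and coronatine libraries numbered 3 left out (0.0672). Under NaCl 0 of 25 passed by edgeR (4 unadjusted), where 0.576% of all genes were called, against 1.02% without NaCl. The medians were 0.06 without NaCl and -0.0011 under it, against -0.00038 and 0.0022 over all genes. DPAM-1 against coronatine had 2 higher and 8 lower, where 34.9% of all genes were called, and 2 and 11 under NaCl, where 42.4% were. With library totals the latter were 6 and 7. DIN9, DIN11 and GDH2 were lower and BGAL4 and ATG8E higher after DPAM-1 both without and under NaCl.

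Salt raised 7 of the 25 and lowered 1 in DMSO, raised 5 and lowered 2 after DPAM-1, and raised 8 and lowered 1 after coronatine. Of all genes 17.7%, 12.2% and 26.8% were called in these comparisons. The medians were 0.30, 0.15 and 0.23, against -0.01, 0.0032 and 0.0012 over all genes. The 5 after DPAM-1 became 3 without DPAM-1 replicate 1 or 3 or DPAM-1 with NaCl replicate 2 or 3, and the 2 became 1 without any 1 of the 6 DPAM-1 libraries. The 1 lower in DMSO became 2 without DMSO with NaCl replicate 1, and the 8 higher after coronatine became 5 with library totals. EXPA10 (AT1G26770), an expansin that loosens walls, rose 5.49-fold in DMSO, 5.53-fold after DPAM-1 and 5.65-fold after coronatine (adjusted p = 2.8e-10, 8.2e-10 and 2.5e-10). The autophagy genes ATG8F (AT4G16520) and ATG8H (AT3G06420) rose in all 3, by 0.41 ± 0.08 and 0.58 ± 0.12 in DMSO (adjusted p = 9.3e-04 and 9.0e-04). PRODH1 (AT3G30775), proline dehydrogenase, which breaks proline down, fell by 0.67 ± 0.14 in DMSO, 1.20 ± 0.15 after DPAM-1 and 1.34 ± 0.14 after coronatine (adjusted p = 0.00186, 5.1e-06 and 2.0e-07). Its mean without NaCl was 31.0 CPM ± 0.672 SD in DMSO and 100 CPM ± 11.3 SD after coronatine. With NaCl these means were 19.5 CPM ± 2.90 SD and 39.5 CPM ± 7.74 SD. GDH2 fell after DPAM-1 by 0.24 ± 0.08 (adjusted p = 0.0366), which ended without any 1 of the 6 libraries (up to 0.166) and with library totals (0.0526). LKR/SDH (AT4G33150), of lysine breakdown, had a larger salt effect after coronatine than in DMSO (interaction 0.76 ± 0.18, adjusted p = 0.0181), which ended with library totals (0.0641) and without replicate 2 of DMSO with NaCl (0.0518) or of coronatine with NaCl (0.0522). LKR/SDH was the 1 gene of this list called for either interaction by edgeR with TMM factors. For DPAM-1 by NaCl 0 of 25 passed by edgeR (3 unadjusted). Of all genes 0.499% were called for that interaction and 3.84% for coronatine by NaCl.

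Of the 24 genes of sugar signalling 22 were measured, among them the SnRK1 subunits, the hexokinase HXK1, bZIP factors and trehalose-6-phosphate synthases. Coronatine raised 7 and lowered 4, where 34.8% of all genes were called, median 0.17 against -0.01 over all genes. Of the higher genes 4 rather than 7 were higher without DMSO replicate 1 or coronatine replicate 3, with the compared groups alone, and with upper-quartile factors or library totals. TPS8 (AT1G70290), a trehalose-6-phosphate synthase family gene, rose 2.81-fold, HXK1 (AT4G29130), a glucose sensor, 1.46-fold and bZIP53 (AT3G62420) 1.43-fold (adjusted p = 6.4e-06, 7.8e-06 and 9.2e-05). bZIP44 (AT1G75390) fell by 1.35 ± 0.13 on the log2 scale (adjusted p = 6.0e-09) from a DMSO mean of 46.1 CPM ± 1.23 SD. TPS5 (AT4G17770) fell by 0.95 ± 0.12 and bZIP2 (AT2G18160) by 0.28 ± 0.08 (adjusted p = 8.5e-07 and 0.00946). After DPAM-1 0 of 22 passed by edgeR without NaCl (0 unadjusted, 0 by DESeq2) and 0 under it (5 unadjusted, 1 by DESeq2). Of all genes 1.02% and 0.576% were called there. Against coronatine, DPAM-1 had 4 higher and 6 lower without NaCl, where 34.9% of all genes were called. Under NaCl it had 3 higher and 6 lower, where 42.4% were. TPS9 (AT1G23870) was lower by 1.66 ± 0.24 without NaCl and by 1.12 ± 0.24 under it (adjusted p = 5.4e-06 and 5.4e-04). bZIP44, TPS5 and bZIP2 were higher in both, bZIP44 by 1.58 ± 0.13 and 1.35 ± 0.13 (adjusted p = 4.1e-10 and 6.6e-09). bZIP25 (AT3G54620), lower under NaCl, was not called with library totals (0.487). Under NaCl, where 47.8% of all genes were called, coronatine had 5 higher and 4 lower, against 1 and 12 with library totals and 2 higher with upper-quartile factors, and 3 were higher without DMSO with NaCl replicate 2 or coronatine with NaCl replicate 3. Of the higher genes, bZIP10 (AT4G02640) and bZIP25 (AT3G54620), at 0.50 ± 0.13 and 0.35 ± 0.08, were no longer called with library totals (adjusted p = 0.264 and 0.810), nor was bZIP25 with upper-quartile factors (0.0581).

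NaCl raised bZIP1 (AT5G49450), a transcription factor of low-energy responses, 3.43-fold in DMSO (adjusted p = 1.6e-06), where it averaged 5.69 CPM ± 0.223 SD without NaCl and 19.6 CPM ± 4.70 SD with it. It rose 2.21-fold after DPAM-1 and 1.87-fold after coronatine (adjusted p = 7.3e-04 and 0.00235). In all, salt raised 5 of the 22 and lowered 1 in DMSO, 3 and 2 after DPAM-1, and 3 and 2 after coronatine, beside 17.7%, 12.2% and 26.8% of all genes called. The medians were 0.02, -0.01 and 0.01. The 5 in DMSO became 3 without DMSO replicate 2 or DMSO with NaCl replicate 2 or 3, and the lower 2 after coronatine became 4 without its replicate 1 or 2. The 3 after DPAM-1 became 1 without replicate 1 or 2 of DPAM-1 or 1 or 3 of DPAM-1 with NaCl. bZIP63 (AT5G28770), the 1 that fell in DMSO (-0.80 ± 0.24, adjusted p = 0.0252), had overlapping groups. Its call ended without DMSO replicate 1 or 2 or DMSO with NaCl replicate 2 or 3 (up to 0.149), and with the compared groups alone (0.0710). After DPAM-1 the lower 2, bZIP2 and bZIP44, and of the higher 3 bZIP9 (AT5G24800) and TPS5 passed with adjusted p between 0.0168 and 0.0493. Each of these 4 calls ended without 1 or more single libraries. bZIP9 also rose in DMSO (0.74 ± 0.14, adjusted p = 3.7e-04). TPS8 rose 2.17-fold with NaCl in DMSO (adjusted p = 7.3e-04), and its salt effect differed after coronatine (interaction -1.64 ± 0.30, adjusted p = 0.00186), where its level was 6.79 CPM ± 1.70 (SD, n = 3) without NaCl and 4.60 CPM ± 0.753 (SD, n = 3) with it. bZIP2 and bZIP53 fell with NaCl after coronatine (-0.81 ± 0.08 and -0.44 ± 0.09, adjusted p = 1.9e-07 and 0.00121), and for both the salt effect differed from that in DMSO (interactions -0.61 ± 0.12 and -0.54 ± 0.13, adjusted p = 0.00327 and 0.0201). For bZIP53 the interaction ended without replicate 1 of DMSO (0.0596), of DMSO with NaCl (0.0661) or of coronatine with NaCl (0.0701).

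**Figure D4:**
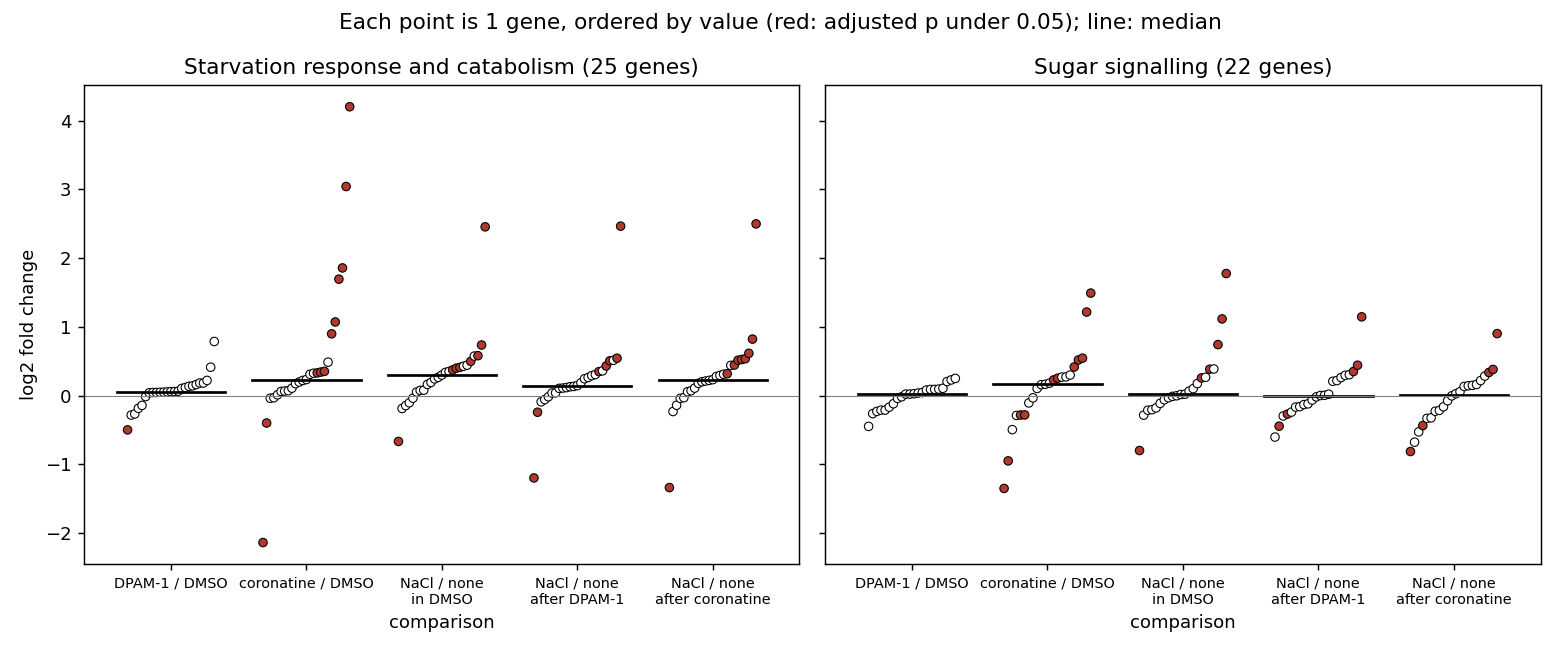
Log2 fold change (vertical axis) of each measured gene of the starvation response and sugar signalling lists in 5 comparisons (horizontal axis). Red points passed an adjusted p of 0.05 and the line is the median of the list. DIN11 stood at 4.204 after coronatine and EXPA10 near 2.5 in each salt comparison, while medians lay between -0.01 and 0.30.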

How the data were processed

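The authors deposited a table of raw counts (reads per gene) for 18 libraries and a second table in the unit signal, each of whose libraries is its raw counts scaled by a single factor. Every result here used the counts. Per the submitters' processing notes, bcl2fastq, Trimmomatic, HISAT2, featureCounts and DESeq2 were used with the TAIR10 build; versions and roles are not given in the sources used here. Each gene had at least 30 reads in every library, so genes low in any library are outside the analysis.

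Counts were fitted in R 4.3.3 with edgeR 4.0.16 (TMM factors from 0.847 to 1.13, quasi-likelihood test, a mean per group, all 18 libraries, 11 comparisons). The expression filter removed 0 genes. The two-sided p-values were adjusted by Benjamini and Hochberg over 14229 genes, with 0.05 as threshold. DESeq2 1.42.0, other factors and filters, the compared groups alone, organelle genes removed, a replicate block and each library left out were alternatives. A pair of them was added after seeing the data: both DMSO and coronatine libraries numbered 3 left out, and the block within those 2 groups. Same-numbered DMSO and coronatine libraries deviated together (r = 0.127, 0.303 and 0.499 over all genes), which the labels do not explain. So did replicate 1 of either group with replicate 2 of the other (0.181 and 0.183). Replicate 3 of either group ran against replicates 1 and 2 of the other (-0.390 to -0.239). For 14 other pairs of groups at least 1 same-numbered r was under 0.1. Gene names were looked up in TAIR10.1, where 14105 codes matched. Members and lists were chosen with earlier results of these data known. Named genes are all members, up to 3 called genes of smallest p per list, direction and comparison, and the 3 highest Pearson r over log2 CPM (prior count 2, mean at least 2).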

Additional observations from a re-analysis of the deposited data

Results flagged for a closer look

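Among the 3 tested genes and the 25, 22 and 12 measured genes of the starvation, sugar signalling and family lists, in 6 the effect of NaCl after coronatine differed from that in DMSO by the interaction term of edgeR's quasi-likelihood test, which called 3.84% of all genes. DIN10 (AT5G20250) had -0.87, a steeper fall with NaCl after coronatine. ASN2 (AT5G65010) had -0.94, TPS8 (AT1G70290) -1.64, bZIP2 (AT2G18160) -0.61 and bZIP53 (AT3G62420) -0.54 on the log2 scale. LKR/SDH (AT4G33150) had 0.76, the 1 value above 0. The cause of these differences was not tested.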

How the results depend on the processing

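Of the 3 tested genes, the number called changed by over 1.5 times in 4 comparisons. With the DMSO and coronatine libraries numbered 3 left out (chosen after seeing the data) it fell to 1 for coronatine against DMSO (from 3) and to 1 for DPAM-1 against coronatine (from 2). Leaving out 1 library at a time gave 1 to 2 for DPAM-1 against coronatine, 0 to 1 for DPAM-1 against DMSO under NaCl and 1 to 2 for NaCl in DMSO. DPAM-1 against DMSO under NaCl had 1 call with DESeq2 and 1 with the replicate block, DIN10 in both (block adjusted p = 0.0320). The block changed no other call of these 3 genes, and of the named list genes it ended TPS5 with NaCl after DPAM-1 (adjusted p = 0.0641) and after coronatine (0.0557). Same-numbered libraries correlated over 0.1 in 3 of 45 pairs, all between DMSO and coronatine, and the block within these groups kept all 3 calls. The differences of the 3 tested genes that changed sign with 1 library left out were not called. For DPAM-1 against DMSO, ASN1 ran from -0.10 to 0.54 and DIN10 from -0.12 to 0.025 (0.0093 without DMSO replicate 1). Under NaCl ASN1 ran from -0.011 to 0.40, and its interaction of DPAM-1 with NaCl from -0.40 to 0.25 (0.09 without DMSO with NaCl replicate 2). With DESeq2 the share of all genes called for DPAM-1 against DMSO was 2.16% without NaCl and 1.37% under it, and with 1 library left out it fell as low as 0.534% and 0.246%. For coronatine against DMSO the median log2 change of all genes moved to -0.13 under upper-quartile scaling and to -0.24 under library totals. There 32.5% and 20.7% of calls were higher, against 50.1% with TMM. The cause was not tested.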
